A study of Mus musculus with 10 samples.

Results

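The AMPA and kainate receptor subunit genes were followed by ribosome profiling (Ribo-seq) through the development of the mouse neocortex. The group was chosen by name and holds 9 of the 22373 genes in the table of footprint counts, of which 4 encode AMPA receptor subunits (Gria1, Gria2, Gria3 and Gria4) and 5 encode kainate receptor subunits (Grik1, Grik2, Grik3, Grik4 and Grik5). All 9 passed the filter of 32 footprints, summed over the 2 libraries of a stage, in at least 1 stage, as did 13484 genes in all. The study asked how mRNA translation changes while neural stem cells give rise to the neurons of the neocortex. Its tissue came from timed-pregnant wild-type CD-1 mice, an outbred stock, with no treatment of the animals, and the groups were the embryonic (E) days E12.5, E14, E15.5 and E17 and the day of birth (P0), with 2 libraries each. A library was made from pooled brains of both sexes, and no replicate is a single animal.

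AMPA and kainate receptors are glutamate-gated ion channels. Each is a tetramer that opens a cation pore when glutamate binds, and the AMPA type carries most of the fast excitatory current at synapses of the mature cortex. The kainate type acts both at synapses and on axon terminals, where it modulates transmitter release. Which subunits a tetramer holds sets its conductance, its kinetics and its calcium permeability. The Gria2 subunit makes an AMPA receptor nearly impermeable to calcium once its mRNA has been edited by an adenosine deaminase. Among the kainate receptor subunits, those of Grik1, Grik2 and Grik3 can form channels on their own, whereas those of Grik4 and Grik5 bind glutamate tightly and need a partner from the first group.

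Footprints are the mRNA fragments that ribosomes protect from nuclease, so a count depends on how much of an mRNA is present and on how many ribosomes it carries. Totals lay between 7544404 and 36129988 counts per library, with the lowest in P0 replicate 1. The 2 libraries of P0 also agreed least, with a standard deviation of the log2 ratio between replicates of 0.54 over 4559 well-counted genes, against 0.13 to 0.22 at the other stages. The 9 genes together held 610 to 3653 counts in a library, and 734 in P0 replicate 1. In a whole tissue, more cells that translate a gene and more footprints per cell cannot be told apart. Levels are given as counts scaled to sequencing depth (CPM) with library sizes scaled by TMM, and they are compared only between samples and not between genes, because a longer coding sequence collects more footprints. Calls required an adjusted p below 0.05 in limma-voom and a change of at least 0.32 on the log2 scale.

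The cell makeup of the tissue moved over the same stages. The summed level of 10 neuron markers was 2021 to 2026 CPM at E12.5, then 2739 to 2766 at E14, 5722 to 5899 by E15.5, 5673 to 5886 at E17 and 6685 to 7423 at P0. All 10 were called higher at E15.5 than at E14. Of 10 progenitor markers, 9 were called lower and 1, Fabp7, was called higher, by 0.62 on the log2 scale. The summed level of the progenitor markers was 2210 to 2284 CPM at E14 and 2158 to 2317 at E15.5. Markers of interneurons or of the ganglionic eminence, cells that migrate into the cortex from below, summed to 54.9 to 56.2 CPM at E14 and 190 to 194 at E15.5, and 7 of 10 were called higher. All 5 choroid plexus markers were called lower at E15.5, where their summed level was 10.7 to 13.5 CPM against 1146 to 1152 at E14, and so were all 5 markers of meningeal fibroblasts, at 2.28 to 2.35 CPM against 59.4 to 69.0. Red blood cell markers, 5 globin and heme genes, summed to 4065 to 4175 CPM at E12.5 and 348 to 403 at P0, and oligodendrocyte lineage markers to 8.09 to 10.02 CPM and 49.1 to 79.9. The part of these differences in the results below was not tested.

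Across the 5 stages, 8 of the 9 genes passed a moderated F test at an adjusted p under 0.05, as did 63.8% of the genes tested. The exception was Grik1, with an adjusted p of 0.0645 in limma-voom. From E12.5 to P0, 8 members were called, against 62.1% of all genes in either direction. Of these, 7 were higher, against 30.1% of all genes, and Grik2 fell. The count of higher members was 5 with libraries weighted by quality, 6 with only these 2 stages fitted and 8 with total counts only. From E12.5 to E17, 7 were called higher, against 26.9% of all genes, and none lower, against 27.8%. At an unadjusted p under 0.05 the count of lower members there was also 0, and edgeR and DESeq2 gave 0. The median log2 fold change over all genes tested lay between -0.02 and 0.00 in each of the 7 comparisons.

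The 4 AMPA receptor genes had their highest footprint levels at E17, when both libraries stood above those of every other stage. How many of all genes had both E17 libraries highest was not counted. Their summed level was 23.1 CPM ± 0.047 (SD, n = 2) at E12.5, then 30.4 ± 3.53 at E14, 52.4 ± 0.425 by E15.5, 92.6 ± 1.56 at E17 and 66.1 ± 8.20 at P0. From E15.5 to E17 the summed level of the neuron markers lay in overlapping ranges, but 2 of the 10, Syt1 and Nefl, were called higher. Of 10 progenitor markers 7 were called lower, yet their sum was 2158 to 2317 CPM at E15.5 and 2361 to 2485 at E17. Among them Fabp7, which was not called, had mean levels of 1628 and 2054 CPM. At that step the interneuron markers rose in sum from 190 to 194 CPM to 260.5 to 260.9, with 1 of 10 called higher, and the oligodendrocyte lineage markers from 8.41 to 9.25 CPM to 23.3 to 29.9, with 3 of 4 tested called higher. The part of these differences in the higher levels at E17 was not tested. Before E15.5 the 4 genes took different courses. At P0 all 4 fitted differences from E17 were negative, and 2 of them, those of Gria2 and Gria3, were called.

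Gria1 (ENSMUSG00000020524, chr11:57011571-57330244, the RefSeq gene span on GRCm38.p6, as for the genes below) encodes a subunit that enters synapses upon activity. Its levels were 4.29 and 4.71 CPM at E12.5, then 7.42 and 9.29 at E14, 18.3 and 17.1 by E15.5, 25.7 and 24.7 at E17, and 18.8 and 22.1 at P0. Each embryonic stage lay above the one before without overlap, and both P0 libraries lay between those of E15.5 and E17. The rise from E12.5 to P0 was 2.19 ± 0.154 (SE) on the log2 scale, or 4.56-fold, with an adjusted p of 7.67e-06 in limma-voom. Gria1 rose by 1.08 ± 0.137 from E14 to E15.5 and by 0.51 ± 0.127 from E15.5 to E17, with adjusted p-values of 0.00065 and 0.0455. The call at E17 was lost in 12 of 19 alternatives, among them edgeR, the replicate block, both other filters on low counts and the fits without any 1 library of the 4 embryonic stages. Its difference between E14 and E12.5, 0.88 ± 0.159, had an adjusted p of 0.0519.

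Gria2 (ENSMUSG00000033981, chr3:80681450-80804227) encodes the subunit that limits calcium entry. It stood at 9.19 and 8.56 CPM at E12.5, then 10.6 and 11.8 at E14, 19.0 and 20.4 by E15.5, 40.1 and 37.1 at E17, and 22.8 and 27.8 at P0. The E17 libraries were the highest by a wide margin, and no pair of neighbouring stages overlapped. It rose by 0.81 ± 0.127 from E14 to E15.5 and by 0.97 ± 0.120 from E15.5 to E17 on the log2 scale, with adjusted p-values of 0.0018 and 0.00743 in limma-voom. It then fell by 0.59 ± 0.121 to P0, with an adjusted p of 0.013, where it was still 2.89-fold above E12.5.

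Gria3 (ENSMUSG00000001986, chrX:41400819-41678601) encodes a subunit that assembles with that of Gria2. Its levels were 6.16 and 7.14 CPM at E12.5, then 7.25 and 8.75 at E14, 8.59 and 8.32 by E15.5, 15.6 and 16.5 at E17, and 8.92 and 11.6 at P0. Both E12.5 libraries were the lowest and both E17 libraries the highest, the P0 pair lay below E17 and above all others, and the values of E14 and E15.5 overlapped. Between E14 and E15.5, when the other 3 AMPA receptor genes rose, the log2 difference was 0.08 with a 95% interval of -0.28 to 0.44 and an adjusted p of 0.735 in limma-voom. Gria3 rose by 0.92 ± 0.147 from E15.5 to E17 and fell by 0.60 ± 0.150 to P0, with adjusted p-values of 0.0138 and 0.0271. The fall was not called with sample quality weights, with only these 2 stages fitted, or without any 1 library of E15.5 or E17. From E12.5 to P0 Gria3 rose by 0.66 ± 0.164, with an adjusted p of 0.00776 in limma-voom. That call was lost with sample quality weights, with only E12.5 and P0 fitted, and without P0 replicate 2.

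Gria4 (ENSMUSG00000025892, chr9:4417893-4796234) encodes a subunit with fast kinetics that many interneurons use. It was at 3.41 and 2.69 CPM at E12.5, then 2.65 and 3.04 at E14, 6.21 and 6.88 by E15.5, 12.4 and 13.2 at E17, and 9.68 and 10.4 at P0. The first 2 stages overlapped, and every later library was above them. It rose by 1.18 ± 0.152 from E14 to E15.5 and by 0.97 ± 0.129 from E15.5 to E17 on the log2 scale, with adjusted p-values of 0.000704 and 0.00797 in limma-voom. The difference between P0 and E17 was -0.33 ± 0.128, with an adjusted p of 0.1.

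**Figure D1:**
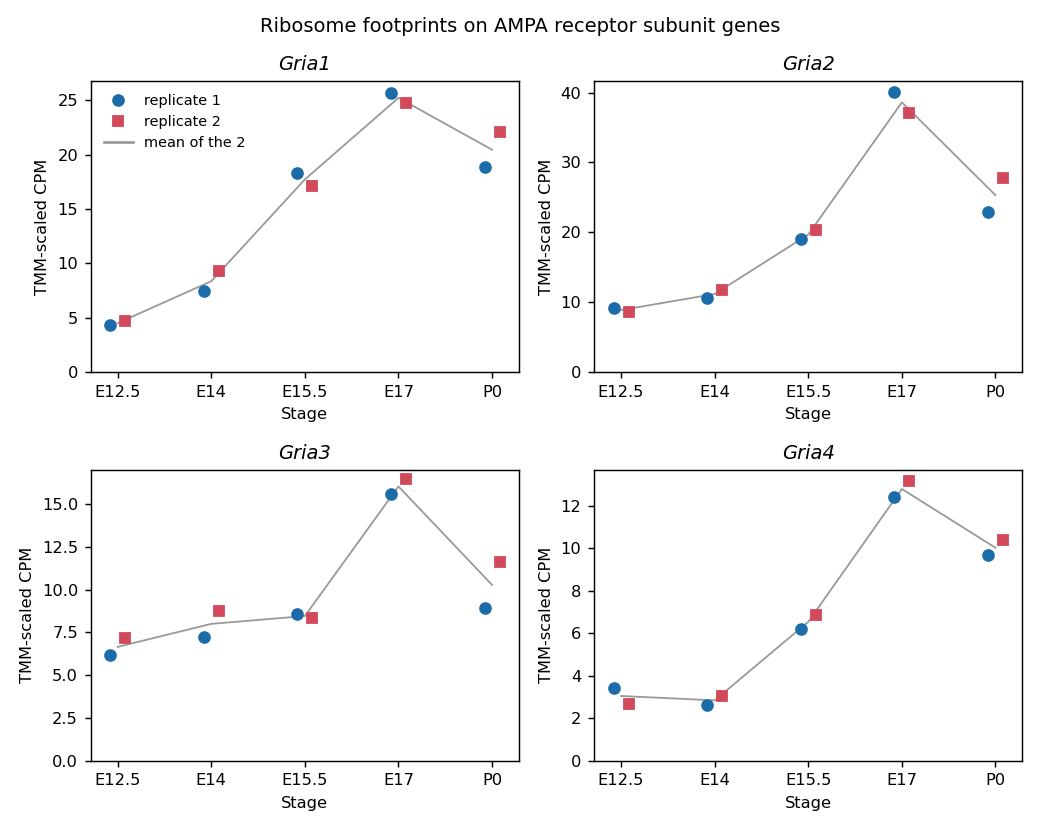
TMM-scaled CPM (vertical axes, linear from 0) of the 4 AMPA receptor subunit genes at the 5 stages (horizontal axes). Circles are replicate 1, squares replicate 2 and the line joins the means of the 2. In each panel both E17 libraries are the highest points, at 25.7 and 24.7 CPM for Gria1 and at 40.1 and 37.1 for Gria2.

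Between E12.5 and E14 none of the 9 was called in limma-voom, where 0.638% of all genes were called in either direction. At an unadjusted p under 0.05, 3 members were higher (Gria1, Gria2 and Grik3) and 1 was lower (Grik2) at E14. The share of all genes at that unadjusted level was not counted. With adjustment, edgeR and DESeq2 each called 1 member higher. Between E14 and E15.5, 5 were called higher (Gria1, Gria2, Gria4, Grik3 and Grik5) and 1 lower (Grik2), against 16.5% and 19.6% of all genes. Neuron and interneuron markers rose, and choroid plexus and meningeal markers fell, at the same step.

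Between E15.5 and E17, 5 were called higher (Gria1, Gria2, Gria3, Gria4 and Grik2), against 5.61% of all genes, and the levels of all 9 were higher at E17. No library of either stage overlapped the other for any of the 9, but the share of all genes without overlap was not counted. For Grik1 the gap was small, from 1.055 CPM in E15.5 replicate 1 to 1.08 in E17 replicate 1. The count was 4, without Gria1, with edgeR, with no filter, with filterByExpr, with the replicate number as a block, and without any 1 library of E12.5 or E14. Without any 1 of these 4 libraries (E15.5 replicates 1 and 2, E17 replicates 1 and 2), the count was 0, with 6 members at an unadjusted p under 0.05 each time, and among all genes tested 0 to 17 were then called higher. How many of all genes passed that unadjusted level was not counted. The log2 fold change of Gria2 stayed between 0.92 and 1.03 over all 19 alternatives, and that of Gria4 between 0.89 and 1.03.

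Between E17 and P0, 3 were called lower (Gria2, Gria3 and Grik3), against 11.1% of all genes, and 7 of the 9 fitted differences were negative. The median log2 fold change over all genes tested was -0.02 at this step, and the share of all genes with a negative difference was not counted. This count was 0 when only these 2 stages were fitted, when libraries were weighted by quality and when E17 replicate 1 was left out, 1 without E17 replicate 2, and 2 without either library of E15.5. It was 3 without P0 replicate 1, the library of lowest depth, and 2 without P0 replicate 2. With only these 2 stages fitted and with quality weights, 3 members were lower at an unadjusted p under 0.05 in limma-voom. How many of all genes were lower at that unadjusted level was not counted. Among all genes tested, 1492 were called lower in the main fit, 0 with only these 2 stages fitted and 300 with sample quality weights. The log2 fold change of Gria2 lay between -0.75 and -0.47 over the alternatives. The summed level of the neuron markers was higher at P0 than at E17, and 5 of those 10 markers were called higher, whereas Syt1 and Neurod6 had log2 differences of -0.32 and -0.40 that did not pass the test. At this step 3 of 6 astrocyte markers were called higher, Gfap by 3.78, Aqp4 by 2.91 and Aldh1l1 by 0.75 on the log2 scale, as were 2 of 4 oligodendrocyte lineage markers, Sox10 by 1.67 and Olig1 by 1.59. Of 10 progenitor markers 6 were called lower, among them Eomes at -2.18 and Top2a at -1.55. The part of these differences in the lower levels of the receptor genes was not tested.

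**Figure D2:**
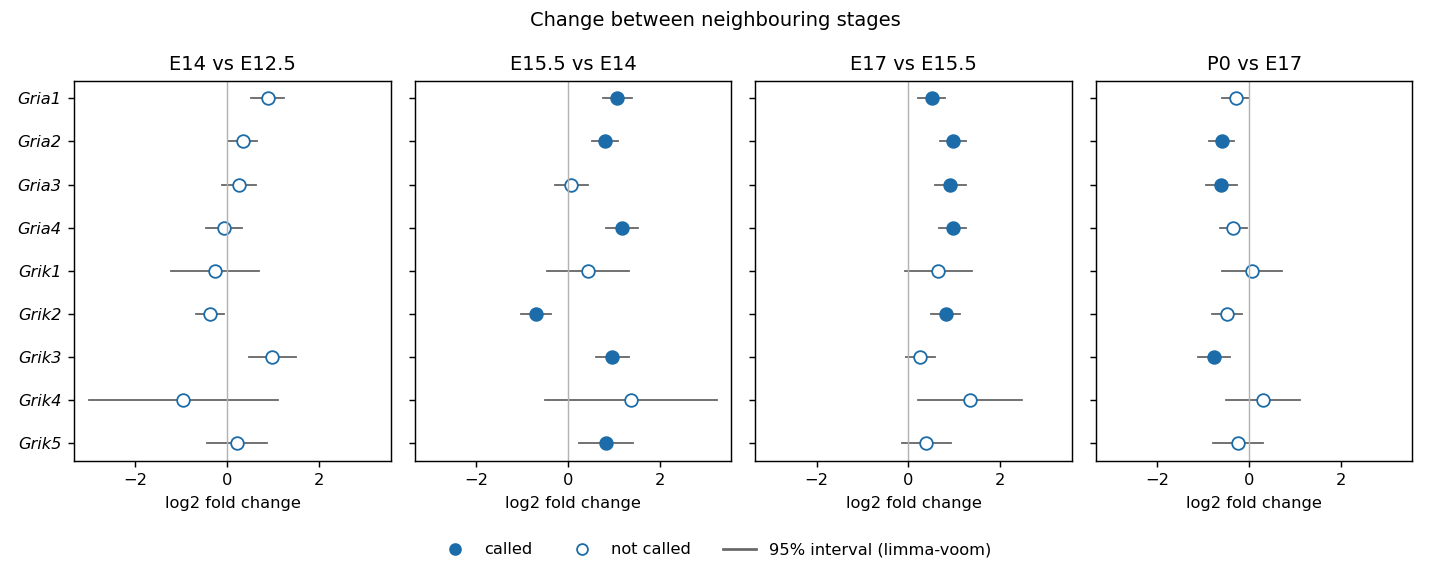
Fitted log2 fold change (horizontal axes) of the 9 genes at each of the 4 steps between neighbouring stages, with 95% intervals from limma-voom; filled points were called and open points were not. The AMPA receptor genes lie to the right of 0 at E15.5 (Gria3 by 0.08 with an interval across 0) and E17 and to the left at P0, Grik2 turns from -0.70 to 0.82 between the middle steps, and the intervals of Grik1 and Grik4 are the widest.

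Kainate receptor genes changed less in sum and took more varied courses. Their summed level was 11.3 CPM ± 1.17 (SD, n = 2) at E12.5, then 11.4 ± 0.017 at E14, 15.1 ± 0.023 by E15.5, 21.3 ± 1.81 at E17 and 17.4 ± 3.01 at P0. From E12.5 to P0 the sum rose 1.54-fold in mean level, against 2.86-fold for the AMPA receptor genes. This difference between the families was not tested as such.

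Grik2 (ENSMUSG00000056073, chr10:49093680-49790161), which encodes a pore-forming subunit, was the member that stood lower at P0 than at E12.5. Its levels were 5.94 and 6.10 CPM at E12.5, then 4.33 and 4.88 at E14, 2.74 and 2.96 by E15.5, 4.80 and 5.26 at E17, and 3.15 and 3.79 at P0. Both E12.5 libraries were above all others and both E15.5 libraries below all others. Grik2 fell by 0.70 ± 0.142 from E14 to E15.5 and rose by 0.82 ± 0.139 from E15.5 to E17 on the log2 scale, with adjusted p-values of 0.00597 and 0.0154 in limma-voom. The fall did not pass the test without E15.5 replicate 1. Against E12.5, Grik2 fell by 1.08 ± 0.141 at E15.5 and by 0.73 ± 0.144 at P0, with adjusted p-values of 0.000426 and 0.00229. With libraries scaled by total counts alone, the P0 difference was -0.21 and was not called. At E15.5 against E12.5, 5 other members were called higher and Grik2 was the 1 called lower, against 22.2% and 24.0% of all genes.

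Grik3 (ENSMUSG00000001985, chr4:125490259-125714173), which also encodes a pore-forming subunit, moved in the opposite direction through E15.5. It was at 0.825 and 1.12 CPM at E12.5, then 1.81 and 2.12 at E14, 4.04 and 3.76 by E15.5, 4.70 and 4.66 at E17, and 3.04 and 2.65 at P0. The first 4 stages stood in ascending order without overlap, and the P0 libraries lay between those of E14 and E15.5. Grik3 rose by 0.97 ± 0.159 from E14 to E15.5 and fell by 0.76 ± 0.152 from E17 to P0 on the log2 scale, with adjusted p-values of 0.00222 and 0.0117 in limma-voom. The fall was not called with DESeq2, with sample quality weights or with only E17 and P0 fitted. Nor was it called without E17 replicate 1, E17 replicate 2 or P0 replicate 2.

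Grik5 (ENSMUSG00000003378, chr7:25009849-25075694) encodes a high-affinity partner subunit. It stood at 2.86 and 4.11 CPM at E12.5, then 4.55 and 3.74 at E14, 7.14 and 7.56 by E15.5, 8.70 and 10.7 at E17, and 11.2 and 6.85 at P0. The first 2 stages overlapped, all later libraries were above them, and the P0 libraries lay on either side of the E17 pair. It rose by 1.21 ± 0.274 from E12.5 to P0 on the log2 scale, with an adjusted p of 0.00488 in limma-voom. The rise of 0.84 ± 0.254 from E14 to E15.5, with an adjusted p of 0.0326, was not called without any 1 of the 4 libraries of these stages, nor with the replicate number as a block.

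Grik1 (ENSMUSG00000022935, chr16:87895901-88290863) and Grik4 (ENSMUSG00000032017, chr9:42518182-42945000) were read from few footprints. Grik1, the third gene for a pore-forming subunit, had 11 to 56 counts per library. Its levels were 0.715 and 0.673 CPM at E12.5, then 0.574 and 0.571 at E14, 1.05 and 0.507 by E15.5, 1.08 and 1.46 at E17, and 1.20 and 1.34 at P0. The E15.5 libraries stood on either side of the earlier stages, and no comparison was called. Its difference between P0 and E12.5 was 0.90 on the log2 scale, with a 95% interval of 0.07 to 1.73 and an adjusted p of 0.0572 in limma-voom.

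Grik4, the other partner subunit, had 3 and 4 counts at E12.5, then 2 and 2 at E14, 5 and 9 by E15.5, 23 and 12 at E17, and 9 and 29 at P0. These counts gave 0.0634 to 0.165 CPM in the 4 libraries before E15.5 and 0.451 to 0.979 CPM in the 4 from E17 on. Summed over the 2 libraries of a stage, P0 stood 4.77-fold above E12.5, with an exact 95% interval of 2.11 to 12.7 that covers counting error only. The call at P0 had an adjusted p of 0.0172 in limma-voom and was lost with sample quality weights and without either E12.5 library. That at E17, with an adjusted p of 0.0406, was lost in DESeq2, with the replicate number as a block and without either library of E12.5, either of E14 or E17 replicate 1.

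**Figure D3:**
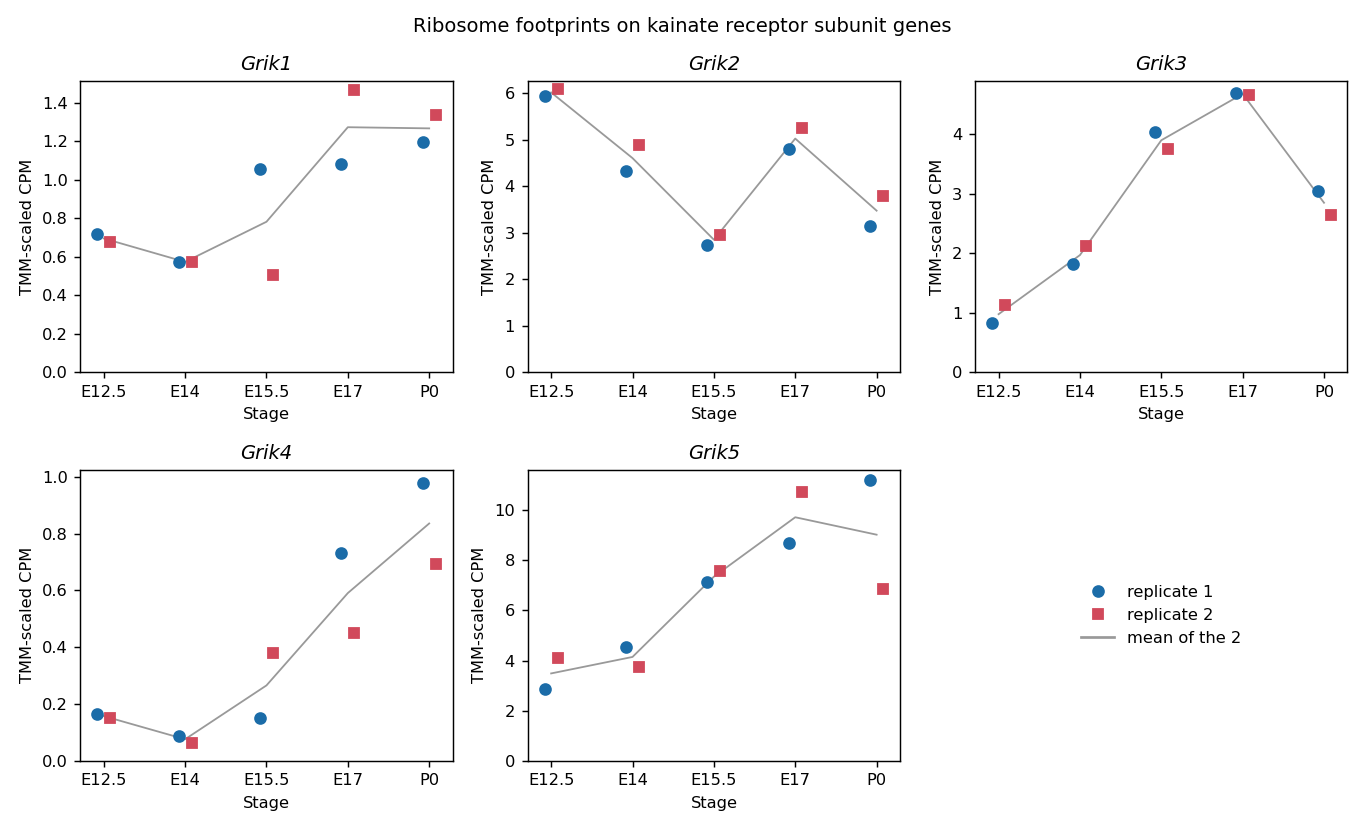
TMM-scaled CPM (vertical axes, linear from 0, with a scale of its own in each panel) of the 5 kainate receptor subunit genes at the 5 stages. Circles are replicate 1, squares replicate 2 and the line joins the means of the 2. Grik2 has its lowest points at E15.5, 2.74 and 2.96 CPM, where Grik3 has reached 4.04 and 3.76.

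The balance within each subfamily was read from count ratios inside a library, which do not depend on how libraries are scaled or on the length of the genes once they are followed over stages. For 7 ratios, the spread of the log2 ratio between stages was set against all 945 ways of dividing the 10 libraries into 5 pairs, in an exact permutation test whose smallest possible p is 0.00106, with adjustment over the 7. The ratio of Gria2 to Gria1 counts was 2.13 and 1.81 at E12.5, then 1.42 and 1.27 at E14, 1.04 and 1.19 by E15.5, 1.56 and 1.5 at E17, and 1.21 and 1.26 at P0. It was highest at E12.5 and lowest at E15.5, with an adjusted p of 0.00741 in the exact permutation test.

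The ratio of Gria2 to Gria3 had geometric means of 1.34 at E12.5, then 1.40 at E14, 2.33 by E15.5, 2.41 at E17 and 2.47 at P0, with an adjusted p of 0.0481 in the exact permutation test. Its 4 libraries before E15.5 lay between 1.20 and 1.49 and the 6 later ones between 2.21 and 2.57. The ratio of Gria2 to Gria4 was highest at E14, with a geometric mean of 3.91, and lowest at P0, with 2.51, also at an adjusted p of 0.0481 in that exact test. Both of these calls were lost without E14 replicate 1, E14 replicate 2, E15.5 replicate 1, E17 replicate 1 or P0 replicate 1, where the adjusted p reached up to 0.0652 and 0.105 in the exact permutation tests.

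Within the kainate subfamily, the ratio of Grik2 to Grik3 moved over a wide range. It was 7 and 5.36 at E12.5, then 2.37 and 2.29 at E14, 0.680 and 0.788 by E15.5, 1.02 and 1.13 at E17, and 1.03 and 1.43 at P0, with an adjusted p of 0.00741 in the exact permutation test. The 4 libraries before E15.5 lay at 2.29 or above and the 6 later ones at 1.43 or below. The ratio of Grik2 to Grik5 had geometric means of 1.75 at E12.5, then 1.11 at E14, 0.389 by E15.5, 0.520 at E17 and 0.398 at P0, with an adjusted p of 0.0278 in the exact test. It was lost without E12.5 replicate 1, E14 replicate 2 or E17 replicate 1, each at an adjusted p of 0.0504 to 0.0556 by the exact permutation test. The ratios of Grik2 to Grik4 and to Grik1, which rest on fewer counts, had adjusted p-values of 0.0247 and 0.054 in the exact test, and the first was lost without E14 replicate 2 or P0 replicate 1.

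**Figure D4:**
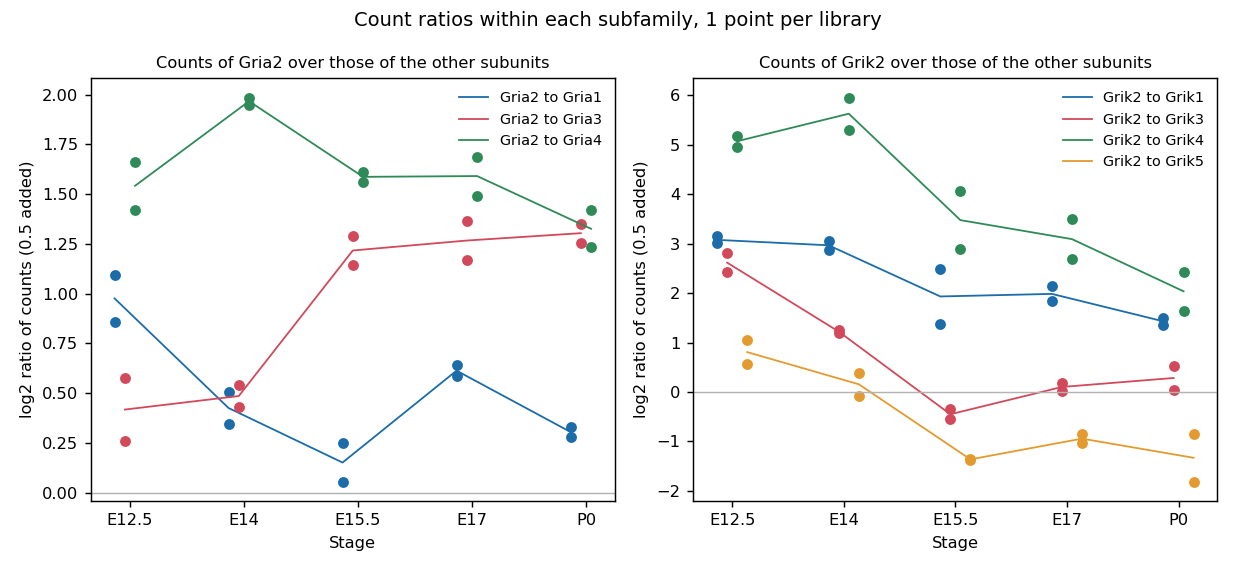
Log2 of the count ratio of Gria2 to the other AMPA receptor genes (left) and of Grik2 to the other kainate receptor genes (right), with 1 point per library and lines through the stage means. On the left Gria2 to Gria3 steps up between E14 and E15.5, from 0.49 to 1.22, and on the right Grik2 to Grik3 drops from 2.62 at E12.5 to -0.45 at E15.5.

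The sequence before the start of 4 of these genes is printed because Gria2 and Gria4 moved together over the libraries and because Grik2 and Grik3 diverged. Over the 10 libraries the log2 levels of Gria2 and Gria4 had a Pearson correlation of 0.97, and those of Grik2 and Grik3 one of -0.59. These are descriptions over libraries that share stages and depth. The sequences are the 250 bases before the start of the gene's entry in the promoter set used (GRCm38.p6). They run from 5′ to 3′ on the gene's strand, with matches to GGGCGG (the GC box) on either strand in capitals. The windows of Gria2, Grik2 and Grik3 lie inside the RefSeq span of their gene, which extends further upstream.
Gria2 chr3:80802836-80803085 (minus strand): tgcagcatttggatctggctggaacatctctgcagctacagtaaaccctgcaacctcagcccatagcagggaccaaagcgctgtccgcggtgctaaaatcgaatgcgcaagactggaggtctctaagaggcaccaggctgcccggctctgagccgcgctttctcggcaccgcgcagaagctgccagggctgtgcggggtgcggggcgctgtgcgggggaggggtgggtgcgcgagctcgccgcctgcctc
Gria4 chr9:4796235-4796484 (minus strand): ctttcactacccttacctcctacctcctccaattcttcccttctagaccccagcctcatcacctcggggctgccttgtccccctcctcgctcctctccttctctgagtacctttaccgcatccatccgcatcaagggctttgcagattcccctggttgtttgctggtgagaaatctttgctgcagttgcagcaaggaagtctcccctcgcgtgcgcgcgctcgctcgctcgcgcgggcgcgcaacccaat
Grik2 chr10:49788755-49789004 (minus strand): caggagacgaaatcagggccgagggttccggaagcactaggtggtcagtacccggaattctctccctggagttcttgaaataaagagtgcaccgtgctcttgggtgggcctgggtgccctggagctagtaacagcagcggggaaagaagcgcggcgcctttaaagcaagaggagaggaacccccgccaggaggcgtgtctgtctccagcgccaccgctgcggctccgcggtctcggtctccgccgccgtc
Grik3 chr4:125490446-125490695 (plus strand): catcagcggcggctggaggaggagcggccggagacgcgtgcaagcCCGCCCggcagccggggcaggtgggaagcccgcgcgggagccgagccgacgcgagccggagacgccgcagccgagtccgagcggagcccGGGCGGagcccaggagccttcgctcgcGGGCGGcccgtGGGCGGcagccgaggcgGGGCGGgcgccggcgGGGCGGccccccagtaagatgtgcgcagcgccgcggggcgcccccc
The window of Grik3 held 6 matches to GGGCGG and had a GC content of 82.0%, whereas those of Gria2, Gria4 and Grik2 held none and had 64.8%, 58.8% and 62.8%. Among the 32851 promoter windows in the table, 32.7% held at least 1 match, and the median GC content was 52.4%. The E-box CAGCTG, found in 13.0% of windows, and the TATA box in its form TATAAA, found in 12.4%, did not occur on either strand in the windows of the 6 members that matched an entry, which also include Grik4 and Grik5 with 1 and 2 matches to GGGCGG. These matches describe letters, and no binding was measured.

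For members that averaged 100 counts or more per library, the genes whose log2 levels over the 10 libraries were most like theirs were sought among 9214 candidates with such an average. These libraries share 5 stages, so that any gene with the same stage means scores high. Gria1 was most like Trappc2l and Gpr85, with Pearson correlations of 0.994 and 0.992. Gria2 was most like Adgrb3, an adhesion receptor of synapses, at 0.991 and AK157302 at 0.989. Gria4 was most like Cdh8, a cadherin, at 0.998 and Atp8a1, a phospholipid flippase, at 0.995. Gria3 had lower values, at 0.945 for Chchd4 and 0.942 for Slco1c1. Grik2 was most like Scd1, a fatty acid desaturase, at 0.972 and Tm9sf4 at 0.968, and Grik5 was most like Pde6d at 0.984 and Grk2, a receptor kinase, at 0.978.

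Genes of the proteins that assemble, escort and anchor these receptors were mostly higher at P0 than at E12.5. AMPA receptor auxiliary and assembly proteins sit beside the channel and set its trafficking and gating. Of 18 tested genes for them, 12 were called higher, against 30.1% of all genes, and 0 lower, against 4313 of the 13484 genes tested. Their median log2 fold change was 1.35 beside -0.01 over all genes tested. The count of lower genes was also 0 in edgeR and DESeq2 and, at an unadjusted p under 0.05, in limma-voom. Shisa8 was the member of this list that did not pass the filter. The largest rises among well-counted genes were those of Prrt1, Shisa9 and Syndig1.

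Prrt1, an AMPA receptor partner also known as SynDIG4, was at 0.550 and 0.374 CPM at E12.5, 2.86 and 2.79 at E15.5, 4.03 and 3.72 at E17, and 25.8 and 14.1 at P0. Its P0 libraries stood far above all others and differed from each other by more than those of any earlier stage, and its rise from E12.5 to P0 was 5.30 ± 0.612 on the log2 scale with an adjusted p of 0.000119 in limma-voom. Syndig1, which acts in the formation of excitatory synapses, rose from 1.54 and 0.972 CPM at E12.5 to 11.5 and 12.1 at P0, by 3.32 ± 0.208 with an adjusted p of 4.08e-06. Shisa9, which slows recovery of AMPA receptors from desensitization, rose from 0.440 and 0.561 CPM to 11.2 and 5.58, by 3.74 ± 0.603 with an adjusted p of 0.000792.

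The 2 cornichons of this list, chosen here after their values were seen, took different courses. Cnih2, which slows AMPA receptor closure and aids its export, was at 5.06 and 5.91 CPM at E12.5, 20.1 and 16.4 at E17 and 25.6 and 23.8 at P0. Its levels were highest at P0. Cnih3 was at 5.99 and 8.30 CPM at E12.5, 31.7 and 30.3 at E15.5, 25.7 and 31.4 at E17, and 11.6 and 13.9 at P0, so that both P0 libraries were below every library of the 2 stages before. Between E14 and E15.5, 9 of the 18 genes were called higher, against 16.5% of all genes, but the count of higher genes was 2 without E14 replicate 2, 4 without the first E15.5 library and 5 without the second.

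Neto1 and Neto2 encode the auxiliary proteins of kainate receptors, which slow their decay. Neto2 was at 7.87 and 7.52 CPM at E12.5, then 8.75 and 10.6 at E14, 20.0 and 20.6 by E15.5, 33.2 and 32.5 at E17, and 16.0 and 24.5 at P0. As with the AMPA receptor genes, both E17 libraries were the highest. Neto2 rose by 1.42 ± 0.199 from E12.5 to P0 on the log2 scale, with an adjusted p of 0.000357 in limma-voom. Neto1 had 2 counts in all at E12.5 and 156 at P0, a 68.6-fold ratio of scaled counts with an exact 95% interval of 18.7 to 571 that covers counting error only, and was called with an adjusted p of 0.000215.

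Of 8 genes for intracellular partners of the receptor tails, 6 were called higher and 1 lower from E12.5 to P0, where 30.1% of all genes were higher and 62.1% were called in either direction. The one that fell was Dlg1, which encodes the scaffold protein SAP97, at 42.6 and 40.2 CPM at E12.5, then 33.7 and 38.0 at E14, 28.3 and 30.3 by E15.5, 24.1 and 22.1 at E17, and 10.9 and 19.2 at P0. Its levels descended without overlap from stage to stage, and the difference from E12.5 to P0 was -1.42 ± 0.214 on the log2 scale with an adjusted p of 0.000539 in limma-voom. Epb41l1, a cytoskeletal linker of Gria1, rose from 21.3 and 19.6 CPM to 207 and 196, by 3.30 ± 0.116 with an adjusted p of 4.84e-07. Grip1, a scaffold for the tails of Gria2 and Gria3, rose by 1.07 ± 0.143. Its paralog Grip2 had 8 counts in all at E12.5 and 606 at P0, a 66.6-fold ratio with an exact 95% interval of 33.6 to 155, also for counting error only. The fitted log2 fold change of Grip2, which takes in the spread between libraries, was 6.21 with a 95% interval of 4.43 to 7.98 in limma-voom, and that of Neto1 was 5.51 with one of 3.90 to 7.13.

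Among 5 tested genes for secreted organisers, 3 were called higher (Nptxr, Olfm1 and C1ql3) and 1 lower (Nptx2), so that 4 of 5 were called in either direction beside 62.1% of all genes. The call of C1ql3 was lost with sample quality weights and without either E12.5 library, and Nptx2, at 1.21 and 1.5 CPM at E12.5 and 0.870 and 0.764 at P0, was not called in 9 of the 19 alternatives. C1ql2 did not pass the filter. All 3 listed genes of the Adar family, Adar, Adarb1 and Adarb2, were called higher, against 30.1% of all genes. Adarb1, which encodes the deaminase that edits the Gria2 mRNA, stood at 7.48 and 6.02 CPM at E12.5 and 16.1 and 23.3 at P0 and rose by 1.59 ± 0.204 with an adjusted p of 0.000222 in limma-voom. The counts do not show whether a footprint was edited.

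Of the 2 tested genes for transporters that load glutamate into vesicles, 1 was called lower from E12.5 to P0. Among all 13484 genes tested, 4313 were called lower. Slc17a6 stood at 12.9 and 14.4 CPM at E12.5 and at 6.20 and 6.23 at P0 and fell by 1.14 ± 0.154 with an adjusted p of 0.000306 in limma-voom. Slc17a7, the main cortical transporter after birth, differed by 0.40 with a 95% interval of -0.04 to 0.83 and an adjusted p of 0.1, and Slc17a8 did not pass the filter.

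**Figure D5:**
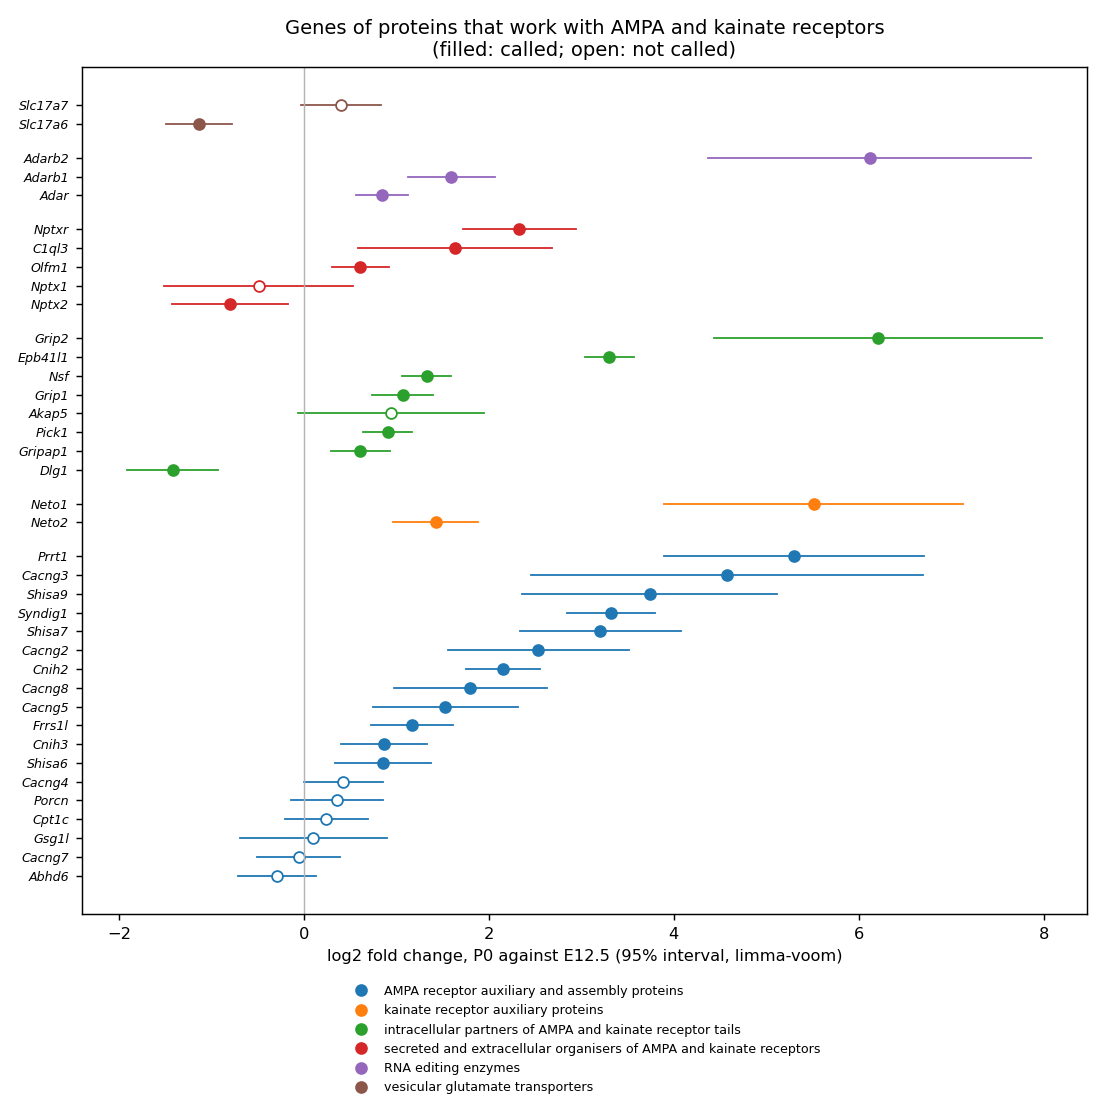
Fitted log2 fold change from E12.5 to P0 (horizontal axis, with 95% intervals from limma-voom) of the genes tested in 6 lists of proteins that work with AMPA and kainate receptors; colours mark the lists, filled points were called and open points were not. Most points lie to the right of 0, and Dlg1 at -1.42, Slc17a6 at -1.14 and Nptx2 at -0.80 are the filled points to its left.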

How the data were processed

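Ribo-seq libraries were made from neocortex at 5 stages, 2 per stage. Per the study's methods, lysates were digested with RNase T1 and RNase A without cycloheximide, footprints were taken from the 80S fraction, reads were deduplicated, contaminants were removed with Bowtie 2, and the rest were aligned to GENCODE coding transcripts and the genome with STAR (version 2.7.0 in the submitters' processing notes), with multimapping reads kept. The deposited values are whole-number counts per gene, not scaled. DeepShape-prime and tximport are named in the methods, but whether they made this table is not stated, nor is the treatment of reads shared by similar genes. Of 22373 identifiers, 22274 matched a symbol. Gene spans are those of RefSeq on GRCm38.p6, as the table names no build. Promoter windows came from a separate set on that build, in which 6 of 9 members had an entry.

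Counts were analysed in R 4.3.3 with limma-voom (limma 3.58.1) and TMM (edgeR 4.0.16), with 1 coefficient per stage, on genes with at least 32 footprints in a stage. Tests were two-sided with Benjamini-Hochberg adjustment over 13484 genes. Comparisons against E12.5 share that pair of libraries. Named auxiliary genes are the 3 largest rises and falls called from E12.5 to P0 with a mean of at least 100 counts. Any gene of the other lists could be named. A further planned list of related genes is not reported here. P-values measure the spread between pools. Ratios used 0.5 added counts. The code was tested on simulated data. Levels per coding length and protein comparisons were planned but not made, since no coding lengths or proteins were used here. 19 alternatives included DESeq2 1.42.0. The members and lists were chosen with earlier results of these data known.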

Additional observations from a re-analysis of the deposited data

How the results depend on the processing

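Over the 9 genes, 7 comparisons and 19 alternatives, 1092 of 1191 values kept their direction and call, 65 lost a call, 22 gained one and 12 turned direction. None of the 12 was called in either fit. The main limits are depth, with at most 56 counts per library for Grik1 and Grik4, and 2 libraries per stage, of which the P0 pair differed most. With 1 library left out, the stage it came from rests on a lone library that is assumed to vary like the others. The causes of the changes below were not tested.

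The count of members higher at E14 than at E12.5 was 1 with total counts only, edgeR or DESeq2 and 2 with sample quality weights, and 0 to 2 with 1 library left out. That of members lower at P0 than at E17 was 0 with sample quality weights or only these 2 stages and 0 to 3 with 1 library left out, and that of members lower at P0 than at E12.5 was 0 with total counts only. With 1 library left out, members lower at E15.5 than at E14 numbered 0 to 1 and members higher at E17 than at E15.5 numbered 0 to 5.

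With total counts only, the median over all genes shifted by 0.06 to 0.51 on the log2 scale, and Gria4 at E14 against E12.5 then gave 0.002, Grik2 at E17 against E12.5 gave 0.151 and Nptx1 at P0 against E12.5 gave 0.015. DESeq2 gave 0.025 for that value of Nptx1. With 1 library left out, the log2 fold change ranged from -0.048 to 0.222 for Gria3 and from -0.162 to 0.861 for Grik1 at E15.5 against E14, from -0.257 to 0.086 for Gria4 and from -0.008 to 0.51 for Grik5 at E14 against E12.5, from -0.158 to 0.279 for Grik1 and from -0.491 to 0.223 for Grik5 at P0 against E17, from -0.431 to 0.594 for Grik1 and from -0.096 to 1.173 for Grik4 at E15.5 against E12.5, and from -0.208 to 1.507 for Akap5 and from -0.754 to 0.642 for Nptx1 at P0 against E12.5. The alternatives for the related genes were added after seeing the data.

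In the exact permutation tests of ratios, the adjusted p for Grik2 to Grik1 was 0.0466 with 1 count added. With 1 library left out, the adjusted p from these exact tests ranged from 0.0326 to 0.0652 for Gria2 to Gria3, from 0.0326 to 0.105 for Gria2 to Gria4, from 0.0148 to 0.122 for Grik2 to Grik1, from 0.0148 to 0.0648 for Grik2 to Grik4 and from 0.00741 to 0.0556 for Grik2 to Grik5.

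The replicate numbers do not pair the samples: deviations of same-numbered libraries correlated between -0.63 and 0.43 over the pairs of stages. With the replicate number as a block, 4 in place of 5 members were higher at E15.5 than at E14 (without Grik5) and at E17 than at E15.5 (without Gria1), 6 in place of 7 at E17 than at E12.5, and the other counts of members did not change.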
